A study of Caenorhabditis elegans with 4 samples.

Results

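The regions described here are the binding peaks of a GFP-tagged transcription factor on chromosome II of Caenorhabditis elegans. They were taken as every peak on II in the combined list deposited for the series, 431 of 3766 peaks (11.4%), by chromosome alone and by no measured value. The same chromosome held 305 of the 2778 peaks of ChIP replicate 1 (10.98%) and 97 of the 906 peaks of ChIP replicate 2 (10.7%). The measurement was chromatin immunoprecipitation with sequencing (ChIP-seq), in which protein is crosslinked to DNA, the chromatin is sheared, and the fragments held by an antibody are sequenced. Both ChIP samples were hermaphrodites at the fourth larval stage (L4), grown at 20 °C on HB101 bacteria and fixed with 2% formaldehyde. The antibody was raised in goat against EGFP.

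Both ChIP samples and both input samples were labelled strain OP241, which carries the unc119 allele ed3 and a transgene, wgIs241, that holds unc119 beside ceh-38 fused to TY1, EGFP and FLAG tags. The strain was made by bombarding an unc-119(ed3) mutant with a tagged ceh-38 transgene and was outcrossed 3 times, per the labels, so all samples carry both that mutation and the transgene. The sources used here give neither copy number nor insertion site of the transgene, nor say whether the replicates were separate cultures. The sample titles name CEH-28 instead of CEH-38, and the antibody is described under the samples titled as input, and the protein is therefore called the tagged factor. Peak lists were at hand for the 2 ChIP samples and for the combined list, and not for the inputs, so no value of control chromatin stands beside the peaks.

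CEH-38 is a ONECUT protein, which binds DNA through a cut domain and a homeodomain. Cut homeodomain proteins of C. elegans are expressed widely, and several of them act together on genes shared by all neurons. CEH-28, the factor of the titles, belongs to the NK-2 homeodomain class and is known from a pharyngeal neuron. The autosomes of C. elegans, II among them, have a gene-dense central part with little recombination, between arms richer in repeats where recombination is frequent. The ceh-38 gene itself is annotated on chromosome II in the gene table of assembly WBcel235, and ceh-28 on X. Peaks are given on WormBase build WS180, so no gene was placed beside a peak, and ceh-38 is named with the widest region below only as a doubt. Positions were not converted between the builds, and genes near the regions below were not analysed here.

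Each peak carried the authors' q-value, a p-value corrected for multiple testing, and no read count, height or summit. The value is printed as q or as −log10 q, which is larger for a surer peak. The depth behind each peak is unknown. No statement on II rests on a test, because the lists form 1 group of 2 samples and neighbouring peaks are not independent. Shares have 95% Wilson intervals and densities have exact 95% Poisson intervals, both for counting error over peaks only. A place is the rank of a peak by q among all peaks of its list, with 1 for the smallest q.

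The peaks of II ranged from 2 bp to 23301 bp in width and from 4.39e-04 to 2.58e-271 in q. In the combined list the median width was 380 bp (quartiles 260.5 and 625.5 bp), and 44 of the 431 peaks were over 1 kb wide. The median −log10 q was 6.02 (quartiles 4.25 and 11.5). Medians were 404 bp and a −log10 q of 6.21 in replicate 1, and 516 bp and 6.95 in replicate 2. Together the combined-list peaks covered 254.8 kb, or 1.67% of the span of II, counted here up to the last peak end, base 15274365. On the other chromosomes the median width was 334 bp and the median −log10 q was 6.43. The density on II was 28.2 peaks per Mb (25.6 to 31.0), below the 43.7 (42.1 to 45.3) of the other autosomes as a whole. Single chromosomes had 36.7 (34.0 to 39.7) on IV, 29.0 (26.7 to 31.4) on V and 23.3 (21.1 to 25.6) on X. IV and V were thus also below the value of the other autosomes as a whole, and the interval of V overlaps that of II. The remaining autosomes, I and III, are not given singly here. Wide peaks had small q-values: across the 431 peaks, Spearman's rho of width and −log10 q was 0.746, and it was 0.769 on the other chromosomes. The points of these correlations share their libraries and a caller that scores a peak over its width.

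Among the surest peaks, II held about the part it held of the lists as a whole. It contributed 11 of the 100 best combined-list peaks (11%, 6.25 to 18.6%), 10 of the 100 best of replicate 1 and 11 of the 100 best of replicate 2. Of the 500 best, 49 were on II in the combined list, 50 in replicate 1 and 52 in replicate 2.

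Support from the replicates divided the 431 peaks into a minority of wide, sure regions and a majority of narrower peaks with larger q-values. A peak was called found in a replicate where the 2 overlapped by at least 1 bp. On II, 85 peaks were found in both replicates (19.7%, 16.2 to 23.7%), against 21.2% of all combined-list peaks. Their median width was 847 bp (quartiles 624 and 1389 bp) and their median −log10 q was 27.3. These 85 regions made up 45.4% of the DNA covered by peaks on II. A further 194 peaks (45.01%, 40.4 to 49.7%) were found in replicate 1 only, against a background of 45.6%. Their widths had a median of 390.5 bp and their −log10 q a median of 6.91. Only 2 peaks were found in replicate 2 only (0.464%, 0.127 to 1.68%, background 0.345%). The remaining 150 (34.8%, 30.5 to 39.4%, background 32.9%) were found in neither replicate. They were the narrowest, at a median of 266 bp, and had a median −log10 q of 4.17. All 4 shares lie near their background over all chromosomes. How the combined list was made is not stated, so a replicate peak under one of its peaks may not be independent evidence.

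**Figure D1:**
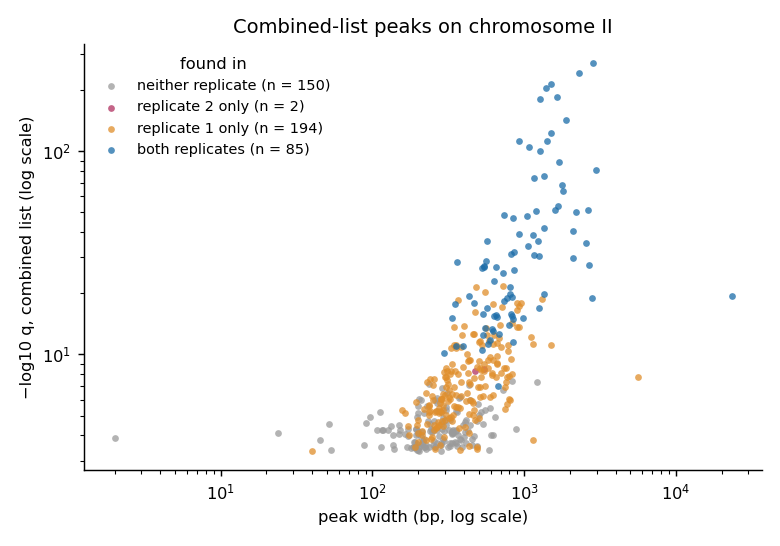
Each point is 1 of the 431 combined-list peaks on chromosome II, with its width in bp on the horizontal axis and its −log10 q on the vertical axis, both on log scales, coloured by the replicates it was found in. Peaks found in both replicates lie at the top right, peaks found in neither lie below a −log10 q of 7.39, and the widest peak, of 23301 bp, stands alone at the right.

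Support fell steeply with place. Of the 107 smallest-q peaks on II, 78 were found in both replicates (72.9%, 63.8 to 80.4%) and the other 29 in replicate 1 only. Of the next 108, which ran from q = 2.68e-12 to q = 8.87e-07, 7 were found in both (6.48%, 3.17 to 12.8%), 88 in replicate 1 only, 2 in replicate 2 only and 11 in neither. None of the 216 weakest was found in both, which in each group of 108 allows a share of up to 3.43%. In the third group 57 were found in replicate 1 only and 51 in neither, and in the weakest group 20 and 88. On the other chromosomes, the first of 4 equal groups by place was found in both replicates in 75.5% of cases (72.5 to 78.3%) and the second in 9.35% (7.56 to 11.5%), intervals that overlap those of II.

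**Figure D2:**
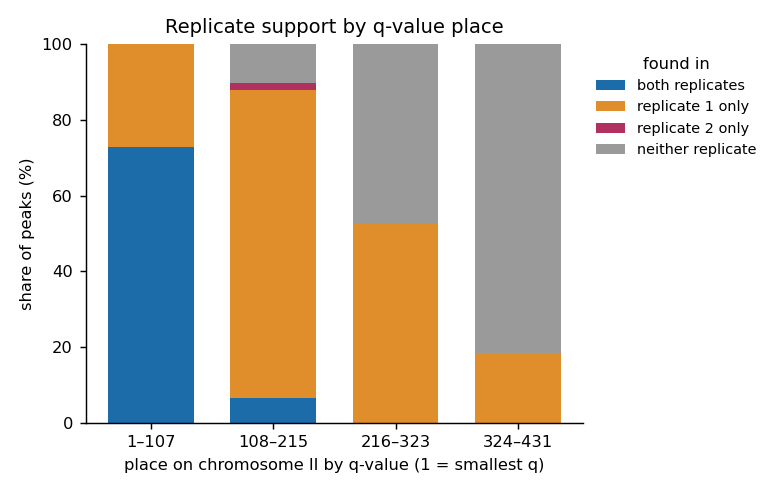
Stacked bars give the share of combined-list peaks on chromosome II (percent) found in both replicates, in replicate 1 only, in replicate 2 only or in neither, for 4 groups of 107 or 108 peaks ordered by q-value. The share found in both is 72.9% in the first group, 6.48% in the second and 0 in the last 2.

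The border between supported and unsupported peaks was not sharp. The weakest II peak found in both replicates lay at 3994529 to 3995205, 677 bp wide, with q = 9.69e-08 in the combined list, 6.59e-08 in replicate 1 and 3.70e-05 in replicate 2. It held place 186 among the 431. In the other direction, the surest peak without a replicate 2 counterpart lay at 9645807 to 9646530, with q = 1.63e-22 in the combined list and 4.38e-21 in replicate 1, at place 50 on II. The next were at 2622725 to 2623208 (q = 3.18e-22) and at 14768532 to 14769082 (q = 5.85e-21). These 4 peaks were chosen after their values were seen. Since the depth is unknown, the absence of a replicate 2 peak says that none was detected, not that the factor was absent.

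The 2 peaks found in replicate 2 only were both in the right outer part of II. The peak at 12208672 to 12209214 had q = 3.44e-09 in the combined list, and replicate 2 had a 200 bp peak there with q = 1.55e-04. The peak at 13456585 to 13457059 had q = 5.50e-09, and replicate 2 had q = 1.36e-04. Both replicate 2 peaks were thus near the weak end of that list, at places 827 and 816 of 906. The 5 surest peaks found in neither replicate had q-values from 4.07e-08 to 1.35e-07. The first, at 5781900 to 5782731, was 832 bp wide and lay 56534 bp from the nearest replicate 1 peak and 103204 bp from the nearest replicate 2 peak. The second, at 8015090 to 8016302 (q = 5.19e-08), was the widest of the 150 with 1213 bp. The other 3 were at 2920940 to 2921175 (q = 7.60e-08), 11978883 to 11979314 (q = 8.34e-08) and 13333244 to 13333530 (q = 1.35e-07). The first of these 3 and the last lay within 2 kb of a stronger peak that both replicates had.

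Nearly every II peak of the shorter replicate list had a counterpart in the longer list. Of the 97 replicate 2 peaks, 91 overlapped a replicate 1 peak (93.8%, 87.2 to 97.1%), against 94.7% over all chromosomes. Of the 305 replicate 1 peaks, 86 overlapped a replicate 2 peak (28.2%, 23.4 to 33.5%), against 29.6%. Of the 97 surest replicate 1 peaks on II, as many as replicate 2 has, 73 were found in replicate 2 (75.3%, 65.8 to 82.8%). By place, 64 of the 76 best replicate 1 peaks on II were found in replicate 2 (84.2%, 74.4 to 90.7%), then 20 of the next 76, 2 of the next 76 and 0 of the last 77. In replicate 2, the 24 peaks at places 25 to 48 on II and the 24 at places 49 to 72 were all found in replicate 1, whereas 3 of the best 24 and 3 of the weakest 25 were not. The other chromosomes had a similar course over 4 groups by place. There 89.5%, 23.0%, 5.34% and 1.13% of replicate 1 peaks were found in replicate 2. Of replicate 2 peaks, 88.6%, 98.5%, 98.5% and 93.6% were found in replicate 1.

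Where a peak of one replicate matched a single peak of the other, their q-values were ordered alike. The pairs were made by overlap, so that rule itself limits how far apart their centres can lie. On II there were 82 such pairs. Across them, −log10 q had a Spearman's rho of 0.855 and a Pearson's r of 0.978, given as descriptions because the pairs share their libraries. The median −log10 q was 18.6 in replicate 1 and 6.95 in replicate 2, and dividing the second by the first gave a median ratio of 0.385 (quartiles 0.331 and 0.493). The median distance between the centres was 63.25 bp, and 53 of the 82 pairs had centres within 100 bp. The replicate 1 peak was the wider in 71 pairs, with medians of 749.5 bp and 526.5 bp. In 55 pairs (67.1%) the replicate 2 peak lay wholly inside the replicate 1 peak. In 1 of the 82 pairs, the widest region described below, replicate 2 was the surer, against 9 of 698 pairs on the other chromosomes.

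**Figure D3:**
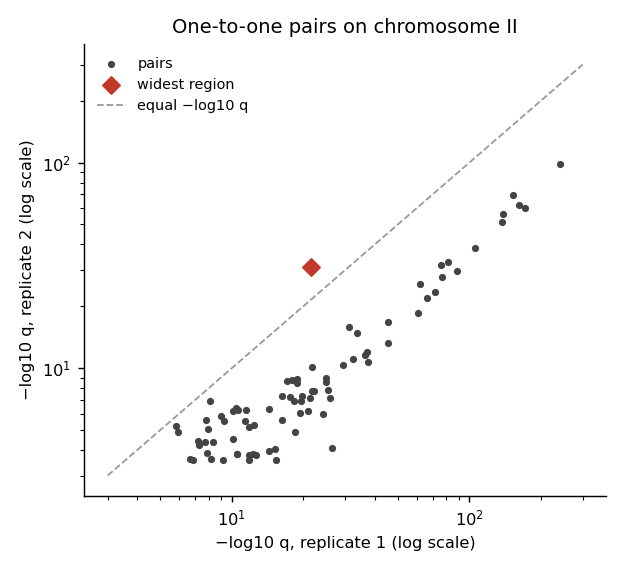
Each point is 1 of the 82 regions of chromosome II where a single replicate 1 peak overlaps a single replicate 2 peak, with −log10 q of replicate 1 on the horizontal axis and of replicate 2 on the vertical axis, both on log scales. All pairs but the widest region (red diamond, 21.4 and 30.9) lie below the dashed line of equal values.

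The 15 surest II regions found in both replicates all lay in the outer parts of the chromosome. The outer parts are the outer 25% at either end of the span, to 3.82 Mb on the left and from 11.5 Mb on the right. They held 7 and 8 of the 15, and the central part held 0. That 0 depends on the cut at 15, since the region at place 16 on II (q = 2.17e-74) was central. Of all 85 regions found in both replicates, 71.8% lay in the outer parts, and of all 431 peaks 57.5%. The 15 regions had a median width of 1511 bp, the narrowest being 931 bp and the widest 2965 bp. Their places ran from 7 to 153 in the combined list. The surest region, at 3066258 to 3069099, had q = 2.58e-271 in the combined list, 2.65e-202 in replicate 1 and 2.62e-68 in replicate 2, where it was divided into 2 peaks. The second, at 13898318 to 13900602, had q = 5.93e-243, 2.20e-172 and 8.11e-61 in the same order. The q-values of these regions were thus smallest in the combined list, larger in replicate 1 and largest in replicate 2. Since q also depends on depth, which is unknown, this order is not one of binding strength.

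The same order of the 3 lists was seen in the regions that followed. The third, at 2885393 to 2886903, had q = 8.56e-216 in the combined list, 6.67e-153 in replicate 1 and 1.70e-70 in replicate 2, and was the only one of the 15 among the 50 best of replicate 2, at place 49. The fourth, at 723373 to 724761, had q = 6.16e-205, 7.48e-163 and 8.02e-63. The fifth, at 2900148 to 2901791, was near the third and had q = 1.20e-185, 4.30e-138 and 3.28e-52. On the right, neighbouring regions at 13413583 to 13414852 (q = 4.02e-182) and 13416728 to 13418628 (q = 1.70e-143) held places 6 and 7 on II. They were followed by 12175764 to 12177275 (q = 1.11e-123) and, next to the surest region, 3069388 to 3070804 (q = 7.40e-113). The remaining 6 lay at 13717620 to 13718550, 14952212 to 14953291, 12670561 to 12671824, 2224319 to 2226018, 11633490 to 11636454 and 1412285 to 1413643, with q from 1.76e-112 to 5.44e-76.

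Of the 15, the region at 11633490 to 11636454 was the widest, at 2965 bp, and the most divided in replicate 2. Replicate 1 had a single peak of 2451 bp there with q = 7.75e-50. Replicate 2 had 3 short peaks, the surest of them 479 bp wide with q = 7.06e-09 at place 409.

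Some of the strongest replicate peaks of II were missing from the combined list. In replicate 1, 284 of 305 peaks overlapped a combined-list peak (93.1%, 89.7 to 95.5%), against 92% over all chromosomes, and 21 did not. Of those 21, 20 were weak (q from 1.05e-05 to 3.78e-04, at most 419 bp wide), and 1 was the surest replicate 1 peak of the whole chromosome, at 12254843 to 12257760 with q = 1.52e-241. Replicate 2 had the same region at 12254929 to 12257381 with q = 3.13e-99, at place 34 of that list. The combined list had nothing there, and its nearest peak, 1141 bp to the left at 12253396 to 12253701, had q = 1.82e-08.

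Of the replicate 2 peaks, 92 of 97 overlapped a combined-list peak (94.8%, 88.5 to 97.8%), against 95.3% over all chromosomes. Of the 5 that did not, 4 were among its 50 best, which held 5 II peaks in all. Apart from the region just described, they were 13315385 to 13316921 (q = 3.61e-185), 12300511 to 12304130 (q = 1.59e-175) and 3061881 to 3065900 (q = 8.72e-174), the 3 surest replicate 2 peaks of II. None of these 3 overlapped a replicate 1 peak. The first lay 3662 bp from the nearest replicate 1 peak, the second 35040 bp and the third 350 bp. The 15 regions named above therefore leave out 1 region that both replicates list and 3 that replicate 2 alone lists. Such losses were not particular to II. Of the best 24 replicate 2 peaks on II, 20 overlapped a combined-list peak (83.3%, 64.1 to 93.3%). On the other chromosomes, 171 of the 202 peaks in the first of 4 groups by place did (84.7%, 79.0 to 89.0%). For replicate 1 the first groups gave 75 of 76 on II (98.7%) and 608 of 618 elsewhere (98.4%).

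The fullest group of neighbouring peaks on II was at the surest region. With peaks under 5 kb apart joined, the 431 peaks formed 305 groups, 227 of them single peaks, and 204 peaks (47.3%, 42.7 to 52.0%) had such a neighbour. The group at 3066258 to 3087761 held 8 combined-list peaks in 21.5 kb, with 8 replicate 1 peaks and 5 replicate 2 peaks. Its q-values fell off to the right from 2.58e-271 and 7.40e-113 to 4.96e-19 at 3071056 to 3071787 and 1.04e-14 at 3076695 to 3077486. These 4 peaks were found in both replicates. Of the 4 peaks beyond them, 3 were found in replicate 1 only and 1 in neither. The last, at 3086449 to 3087761, had q = 1.96e-19, and replicate 1 had 2 short peaks there. On the left, the replicate 2 peak at 3061881 to 3065900 ended 357 bp before the group.

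A second group, at 13454746 to 13469482, held 7 peaks in 14.7 kb. Only its leftmost peak, at 13454746 to 13455292, was found in both replicates (q = 8.41e-28 in the combined list, 1.69e-08 in replicate 2). Of the others, 4 were found in replicate 1 only, 1 in replicate 2 only and 1 in neither, with q from 3.69e-10 to 7.81e-05. Groups of 5 lay at 1233852 to 1247409, 5330147 to 5341107 and 10541981 to 10552554, the first of which had no replicate 2 peak. These groups were chosen after the positions were seen.

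The widest region of II stood apart from the other pairs on II in the order of its q-values, though such pairs also occurred on the other chromosomes. It ran from 6939198 to 6962498 in the combined list (23301 bp, q = 4.24e-20), from 6939183 to 6961050 in replicate 1 (21868 bp, q = 3.56e-22) and from 6950066 to 6956992 in replicate 2 (6927 bp, q = 1.31e-31). The replicate 2 peak began 10883 bp inside the left edge of the replicate 1 peak and ended 4058 bp inside its right edge, so it took up 31.7% of that width. The −log10 q was 19.4, 21.4 and 30.9 in the 3 lists. Replicate 2 thus had the smallest q here, with a ratio to replicate 1 of 1.44, whereas the next highest ratio among the 82 pairs was 0.899. On the other chromosomes replicate 2 was the surer in 9 of 698 such pairs, with ratios of up to 1.69. Of the 85 regions found in both replicates, this was also the only one whose combined q-value was larger than that of replicate 2, and 1 of 3 whose combined q-value was larger than that of replicate 1. On the other chromosomes the combined q-value was larger than that of replicate 2 in 7 of 679 one-to-one pairs. A combined q-value larger than that of replicate 1 was more common. It occurred in 39 of 271 one-to-one pairs of these 2 lists on II, and in 269 of 2164 on the other chromosomes.

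The surroundings of the widest region were sparse in replicate 2. In the combined list, peaks lay to its left at 6932322 to 6937975 (5654 bp, q = 1.64e-08) and at 6926269 to 6926930 (q = 1.13e-09), and to its right at 6992844 to 6993158 (q = 7.34e-08). Replicate 1 had a peak at each of these 3, with q = 3.74e-06, 6.80e-11 and 6.48e-06. Replicate 2 had none of them, and its nearest peaks were 360.6 kb to the left and 713.0 kb to the right. Such absence was common. Replicate 2 had a counterpart for 28.2% of all replicate 1 peaks on II and for 29.6% over all chromosomes. In the whole central part of II, replicate 2 had 25 peaks. The region made up 9.15% of the DNA covered by II peaks in the combined list, 11.5% in replicate 1 and 9.10% in replicate 2. Without it, peaks on II covered 231.5 kb in the combined list. A doubt attaches to this region: the position of ceh-38 in the WBcel235 table, read as a bare number, falls within its WS180 limits, but the builds differ, so whether the region holds ceh-38 is not established. All samples carry added copies of ceh-38 on the transgene, and the part of those copies in the width and q-values of this region was not tested.

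**Figure D4:**
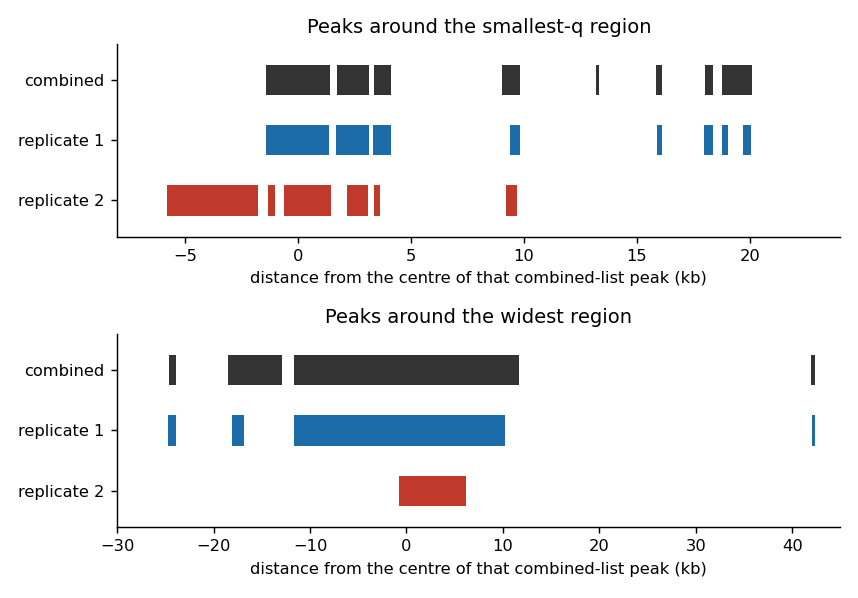
Bars are the peaks of the combined list, replicate 1 and replicate 2 around 2 regions of chromosome II, by their distance in kb from the centre of the smallest-q combined-list peak (top) and of the widest one (bottom). In the top map replicate 2 has a wide peak of 4020 bp on the left that the other lists lack, and in the bottom map a peak of 6927 bp lies inside peaks of 21868 and 23301 bp.

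Along the chromosome, the regions found in both replicates were gathered in the outer parts, and the peaks found in neither replicate were not. In the combined list, 110 peaks lay in the left outer part, 183 in the central part and 138 in the right outer part, so the outer parts held 57.5% (52.8 to 62.1%) against 50% for even placement. Replicate 1 had 59.3% of its peaks there (53.7 to 64.7%), and replicate 2 had 74.2% (64.7 to 81.9%). Among the 85 regions found in both replicates it was 71.8% (61.4 to 80.2%), with 28 on the left, 24 in the centre and 33 on the right. Among the 194 found in replicate 1 only it was 56.7% (49.7 to 63.5%), and among the 150 found in neither it was 50% (42.1 to 57.9%). By place, the share was 69.2% among the 107 surest peaks, 56.5% and 54.6% in the next 2 groups of 108, and 50% in the weakest group. The other autosomes had similar outer shares: 59.9% (58.1 to 61.7%) in the combined list, 63.6% in replicate 1 and 74.6% in replicate 2. Among their peaks found in replicate 1 only it was 59.0%, and among those found in neither 52.8% (49.6 to 55.9%). The contrast between these classes is thus not particular to II among the autosomes.

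Seen from the parts, 25.5% of the left outer peaks (18.2 to 34.3%) and 23.9% of the right outer peaks (17.6 to 31.7%) were found in both replicates, and 13.1% of the central peaks (8.97 to 18.8%). In the regions found in both, the median −log10 q was 31.3 on the left, 19.0 in the centre and 29.9 on the right, while the median width was 858, 842.5 and 823 bp. On the other autosomes the median −log10 q was 35.2, 21.3 and 39.1 in the same order. The surest central region found in both lay at 4256022 to 4257182 (q = 2.17e-74), at place 16 on II. Among peaks found in neither, the central ones were the wider, with a median of 307 bp against 216.5 bp on the left and 223 bp on the right. This was also so on the other autosomes (255 bp against 178 and 199 bp) and on X (353 bp against 282 and 288 bp). Nor was it particular to peaks found in neither. On II, peaks found in replicate 1 only had medians of 489.5 bp in the centre, 295.5 bp on the left and 387 bp on the right. The outer share of regions found in both replicates was 72.5% (68.9 to 75.8%) on the other autosomes and 57.5% (46.6 to 67.7%) on X, intervals that overlap that of II. On II the outer parts held similar numbers, 33 on the right and 28 on the left. The split was less even on V, with 58 on the right and 21 on the left, and on IV, with 18 and 91.

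**Figure D5:**
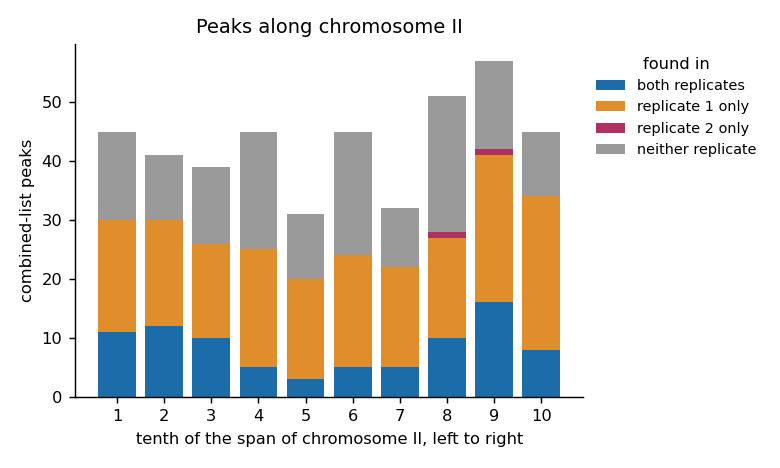
Stacked bars count the combined-list peaks of chromosome II in 10 equal parts of its span from left to right, coloured by the replicates they were found in. Regions found in both replicates number 11, 12 and 10 in the first 3 parts, 3 to 5 in the fourth to seventh, and 10, 16 and 8 in the last 3.

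By 1 Mb bins, the fullest of the combined list ran from 12 to 13 Mb and from 13 to 14 Mb, with 41 peaks each. Replicate 2 had its fullest bin from 12 to 13 Mb too, with 17 peaks of 97, and 14 of the regions found in both replicates lay there. The emptiest whole bin, from 4 to 5 Mb, held 18 combined-list peaks. The bin from 7 to 8 Mb held 23 combined-list peaks, of which 1 was found in both replicates. The longest stretch without a combined-list peak ran from 1501052 to 1903126 (402.1 kb), and replicate 1 had no peak from 1501056 to 1916883. The next ran from 9647709 to 10033410 (385.7 kb), and replicate 1 had none from 9646691 to 10033471. Both stretches were thus empty in both lists.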

How the data were processed

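Peak lists of 2 ChIP samples and a combined list of the series were read as deposited. Per the file headers, the authors called peaks with PeakSeq on WormBase build WS180, and each deposited row holds 2 coordinates with a q-value. The aligner, filters, q-value limit and way of combining were not given in the sources used here. Samples were grouped by their titles. Rows on chromosome II were taken from each list, −log10 q was computed from the deposited text, and peaks were matched by an overlap of at least 1 bp in Python 3.11.15 with numpy 2.4.6 and scipy 1.17.1, after a check on simulated peaks. Named regions are the 15 smallest-q combined-list peaks found in both replicates, the widest peak of each list and all peaks within 50 kb of it, the peaks found in replicate 2 only, the 5 surest found in neither, and peaks among the 50 best of a replicate that the combined list lacks. The regions, groups and alternatives were chosen with earlier results of these data known. No q-value was compared between lists as binding strength, since q also depends on depth. No genome of build WS180 was used here, so no sequence is printed.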

Additional observations from a re-analysis of the deposited data

How the results depend on the processing

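The number of peaks was held to have moved when it changed by over 1.5 times, and the other results when they left their 95% counting interval (for the correlation, its approximate interval). By these rules 16 of 31 alternatives for 7 results moved the value. A fall from 431 to 305 peaks thus counts as moved only as a density. In the better part of the list by q (peaks at or below the median q of all combined-list peaks), II held 199 peaks (13.0 per Mb), 42.7% of them found in both replicates and 63.8% in the outer parts. With peaks under 5 kb apart joined there were 20.0 per Mb. A reciprocal overlap of 50% gave 14.2% of combined-list peaks found in both replicates and 76.3% of replicate 2 peaks found in replicate 1, and centres within 200 bp gave 14.6% and 74.2%. Lists of equal length gave 75.3% of replicate 1 peaks found in replicate 2. Wider outer parts, for which even placement gives 66.7%, held 70.3% (65.8 to 74.4%), an interval that includes it, so the gathering of all II peaks towards the ends rests on where the outer part begins. Using a single replicate in place of the combined list gave 97 (without replicate 1) to 305 peaks (without replicate 2), 6.35 to 20.0 per Mb and 59.3 to 74.2% in the outer parts, and support by a single replicate gave 20.2 to 64.7%. Spearman's rho stayed between 0.855 and 0.900, the pair in the widest region left out included, which was tried after seeing the data. What caused these shifts was not tested. No paired analysis was possible because no result comes from a fit between groups: inputs and ChIP samples have numbers in common, but peak lists of inputs were not analysed here. Because depth is unknown, regions found in 1 list cannot be called unbound in the other.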
